A study of Mus musculus with 2 samples.

Results

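Immediate-early and dissection stress genes were examined as 10 genes taken by symbol (Fos, Fosb, Jun, Junb, Egr1, Ier2, Atf3, Dusp1, Nr4a1 and Arc) of the 21896 genes in the files. All 10 were found in both libraries. RNA was from the ventricular and subventricular zones (VZ-SVZ) dissected from the E13.5 cortex of C57/BL6 mice. One library was from Rcor2fl/fl embryos, the control, and one from Rcor2cko embryos, which carry the same floxed Rcor2 alleles together with Nestin-Cre. The study describes this cross as a conditional loss of Rcor2 in the neural lineage. Whether microglia, vessel or blood cells in the dissected tissue also lost Rcor2 was not tested. With 1 library per genotype no difference has a replicate check, and a ratio between them compares a pair of libraries, not the genotypes themselves. Paired values are given with Rcor2fl/fl first and Rcor2cko second. How many embryos went into a library is not given in the sources used here.

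Immediate-early genes are switched on within minutes of a stimulus, before any new protein is made, by transcription factors that already sit on their promoters. Growth factor and stress signals reach them through MAP kinases, which act on serum response factor and its partners, and calcium and cyclic AMP reach them through CREB. Their products are partly transcription factors, partly brakes on the same pathways. In brain tissue they are known as markers of neuronal activity and also of handling, since cutting and dissociation induce them before RNA is isolated.

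The data are FPKM values, that is, fragment numbers divided by transcript length and library total, deposited by the authors, with a 95% FPKM interval for each value. The scaling totals behind them, recovered from the steps in low values, were 18841100 and 25479900 fragments, at which 3 fragments of a 2000 nt transcript correspond to 0.0882 and 0.0654 FPKM. Rcor2, measured over the whole gene, was at 90.6 and 55.7 FPKM. Xist was at 177 and 0.109 FPKM, so that the sex of the embryos also differed between the libraries and cannot be told apart from genotype. Markers of radial glia and of neurons were present, with a summed level of 861 and 1012 FPKM for 7 radial glia genes and 1489 and 1439 FPKM for 6 neuron genes. The higher radial glia sum of the Rcor2cko library rested on Fabp7, at 372 and 539 FPKM. Of the 7 genes, 3 were higher and 4 lower in that library.

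The promoters were searched for motifs that the rule choosing the members did not use. RefSeq promoter windows were held for 7 members (Fos, Fosb, Jun, Junb, Atf3, Nr4a1 and Dusp1), and the 250 bases before the start were searched on both strands. TGACG, the half-site bound by CREB and ATF proteins, was present in 6 of the 7 windows and in 17.8% of all 32851 windows, and it was searched because it had been seen in these sequences, so that the higher share is no independent finding. Jun was the member without it, though its window holds the near match TGACATCA. The full site TGACGTCA, which contains that half-site on each strand, was found in Dusp1 alone among the members and in 1.55% of all windows. Only exact matches were counted. TGACATCA in Jun differs from the full site only in the base after TGAC, and no motif searched can match it. TATAAA was found in Fos alone, and in 12.4% of all windows. The CArG box, the site of serum response factor, and the AP-1 site TGANTCA were in none of the 7 windows, against 1.47% and 6.75% of all windows. A match is a description of letters and not of binding, and windows further upstream were not searched.

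The windows of 5 members are printed, that of Dusp1 cut to the 203 bases outside its GENCODE gene model, because they carry the highest levels (Jun, Dusp1), the family's namesake (Fos) and the lowest ratios between the libraries (Junb, Nr4a1). Each is given 5′ to 3′ on the strand of its gene, with TGACG on either strand (read as CGTCA on the other) and TATAAA in capitals. Their places in mm9, found by exact match, are chr4:94718914-94719163 on the minus strand for Jun, chr17:26645465-26645667 on the minus strand for Dusp1, chr12:86814590-86814839 on the plus strand for Fos, chr8:87502648-87502897 on the minus strand for Junb and chr15:101097027-101097276 on the plus strand for Nr4a1.
Jun: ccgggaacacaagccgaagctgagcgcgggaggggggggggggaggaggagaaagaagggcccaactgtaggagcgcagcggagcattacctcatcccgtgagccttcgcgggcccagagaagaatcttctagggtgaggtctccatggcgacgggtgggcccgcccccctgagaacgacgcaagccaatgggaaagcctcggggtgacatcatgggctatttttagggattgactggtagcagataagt
Dusp1: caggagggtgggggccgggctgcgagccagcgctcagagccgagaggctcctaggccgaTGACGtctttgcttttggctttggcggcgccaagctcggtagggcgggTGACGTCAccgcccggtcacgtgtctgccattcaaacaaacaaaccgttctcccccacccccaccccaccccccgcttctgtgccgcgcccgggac
Fos: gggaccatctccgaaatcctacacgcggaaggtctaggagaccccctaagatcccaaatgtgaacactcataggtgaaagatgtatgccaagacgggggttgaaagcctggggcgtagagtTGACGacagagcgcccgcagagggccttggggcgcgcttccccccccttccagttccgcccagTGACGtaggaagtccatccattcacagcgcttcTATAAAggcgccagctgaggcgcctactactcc
Junb: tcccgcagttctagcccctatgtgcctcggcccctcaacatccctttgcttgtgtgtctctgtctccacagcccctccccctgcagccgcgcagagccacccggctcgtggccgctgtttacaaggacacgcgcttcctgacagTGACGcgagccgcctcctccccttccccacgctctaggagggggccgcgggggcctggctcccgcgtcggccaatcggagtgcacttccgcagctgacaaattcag
Nr4a1: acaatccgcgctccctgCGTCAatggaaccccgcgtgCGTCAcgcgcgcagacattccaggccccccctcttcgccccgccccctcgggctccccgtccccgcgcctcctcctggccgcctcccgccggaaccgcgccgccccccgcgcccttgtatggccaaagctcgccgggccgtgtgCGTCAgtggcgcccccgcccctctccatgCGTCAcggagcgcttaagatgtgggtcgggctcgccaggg
In Dusp1 the full site lay from 143 to 136 bases before the start, with another half-site from 191 to 187. Positions count from the RefSeq start, which for Dusp1 lies beyond the last base printed, inside the GENCODE gene model. In Fos the half-sites lay from 129 to 125 and from 66 to 62 bases before the start, and TATAAA from 33 to 28. Nr4a1 held 4 half-sites, all read on the other strand, and Junb 1.

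The members were also compact. Over the 10 genes the genomic span ran from 1522 bases (Ier2) to 13045 bases (Atf3), with a median of 3436, whereas the median of 11550 annotated genes with at least 1 FPKM in either library was 24576.5 bases. The longest annotated transcript had 1 exon in Jun, Junb and Ier2 and at most 7 exons (Nr4a1), with a median of 3 against 8 over those genes. Transcript length was less different, with a median of 2284.5 nt against 2733 nt over 9244 genes with 1 transcript. Every member had 1 transcript in the files, so that its whole level rests on 1 row in each library.

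The members spanned a wide range of levels, which was alike in the libraries. Jun was at the top and Fosb at the bottom of each library, and none of the 10 genes was listed at 0. Jun, Dusp1 and Ier2 together made up 84.9% and 86.0% of the summed FPKM of the members. The sum itself was 59.9 and 54.7 FPKM. Only Jun and Dusp1 lay above the median of the 11777 genes with at least 1 FPKM in either library, which was 10.5 and 10.4 FPKM. In bulk RNA a lower level in every cell and fewer cells with the transcript cannot be told apart.

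**Figure D1:**
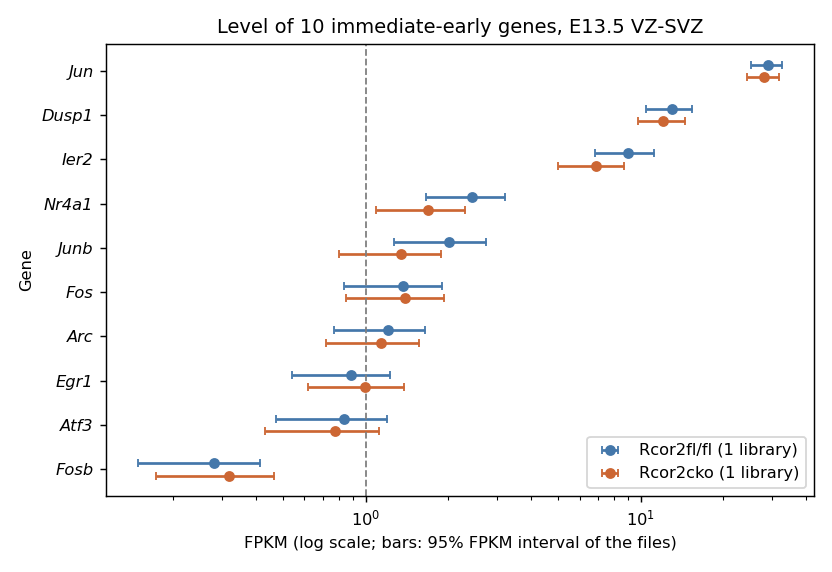
FPKM of the 10 genes (log axis) in the Rcor2fl/fl library (blue) and the Rcor2cko library (orange), 1 library each, with the 95% FPKM intervals of the files as bars and 1 FPKM as a dashed line. Jun sits highest at 28.9 and 28.1 FPKM and Fosb lowest at 0.282 and 0.318 FPKM, and the blue and orange intervals of each gene overlap.

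The order of the members was resolved only in part. In the Rcor2fl/fl library the 95% FPKM intervals separated Jun from Dusp1, Ier2 from Nr4a1 and Atf3 from Fosb, but not Dusp1 from Ier2. In the Rcor2cko library they separated Jun from Dusp1, Dusp1 from Ier2 and Ier2 from Nr4a1. Between Nr4a1 and Atf3 the intervals of all neighbours overlapped in both libraries. Fos and Junb exchanged places there, with Junb (2.01 FPKM) above Fos (1.37 FPKM) for Rcor2fl/fl and Fos (1.39 FPKM) above Junb (1.34 FPKM) for Rcor2cko, and their intervals overlapped each time.

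Whether the loss of Rcor2 went with a different level of these genes was asked from the ratio of the libraries. No member differed by more than 1.5-fold. Of the 10 genes, 7 reached 1 FPKM in at least 1 library, and 0 of these 7 were past 1.5-fold on (FPKM + 0.1), where 5.54% of the 11777 genes tested were (3.79% higher and 1.76% lower in the Rcor2cko library). At these rates a count of 0 among 7 genes does not set the members apart from other genes. The median log2 ratio (Rcor2cko over Rcor2fl/fl) was -0.10 for the 7 genes and -0.08 for all 10, against -0.03 for all genes tested. A list of 10 reference genes, such as Gapdh and Tbp, had a median of -0.10 and was lower in 8 cases. Of the 7 members tested, 6 were lower and 1 higher, where 57.6% of all tested genes were lower. Over all 10 members, 7 were lower and 3 higher.

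Counting error was then taken into account with the fragments recovered for each member. For 3 genes, Junb, Nr4a1 and Ier2, the 95% exact interval of the ratio lay below 0, and for none above 0. Of the 12093 genes with fragments, 17.2% had an interval below 0 and 29.1% one that excluded 0 in either direction. That set reaches down to genes with 1 fragment, where the interval cannot exclude 0. No share at the members' fragment numbers was taken. These intervals leave out the variation between embryos and dissections, and the wider 95% FPKM intervals of the files overlapped for all 10 members. Among the 11777 genes tested, 220 were counted as higher and 81 as lower with such intervals apart. Overlap was thus the usual case and does not set the members apart from other genes. For 4 genes (Jun, Dusp1, Fos and Arc) the exact interval lay inside 1.5-fold in either direction. For the other 6 it reached past 1.5-fold, so that at this depth a difference of that size could not be told from the ratio measured.

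**Figure D2:**
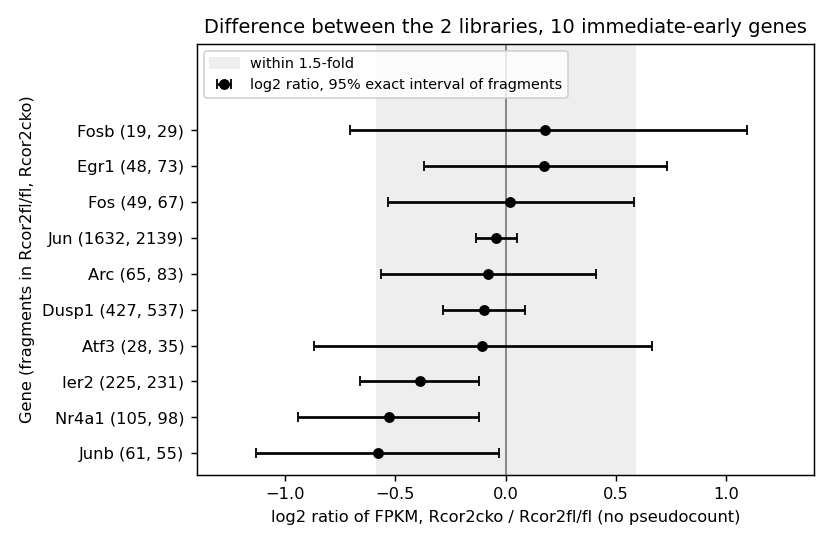
The log2 ratio of FPKM without pseudocount (Rcor2cko over Rcor2fl/fl) for each of the 10 genes, with the 95% exact interval of the recovered fragments, whose numbers are given beside the gene name, and the range within 1.5-fold shaded. Junb (-0.58), Nr4a1 (-0.53) and Ier2 (-0.39) have intervals below 0, and the others cross it.

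Jun, which pairs with Fos proteins in the AP-1 dimer and also binds DNA without them, was the most abundant member. In mm9, Jun lies on the minus strand of chromosome 4 from 94715725 to 94718913. Its level was 28.9 and 28.1 FPKM, from 1632 and 2139 fragments. The log2 ratio was -0.04, with the narrowest interval of the members, from -0.14 to 0.05. Junb, its relative with weaker transactivation, lies on chromosome 8 from 87500811 to 87502617 on the minus strand and was far less abundant. It was at 2.01 and 1.34 FPKM, from 61 and 55 fragments. Junb had the lowest ratio of the members, 1.49-fold lower in the Rcor2cko library without pseudocount, with a log2 interval from -1.13 to -0.03. The Jun level was 14.4 and 20.9 times the Junb level.

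Fos, the classic marker of recent stimulation, forms AP-1 only with a Jun partner. It lies on chromosome 12 from 86814840 to 86818223 on the plus strand. Fos was at 1.37 and 1.39 FPKM, from 49 and 67 fragments, a log2 ratio of 0.02 with an interval from -0.53 to 0.58. Fosb, which shares the same dimer partners, lies on chromosome 7 from 19888070 to 19895394 on the minus strand. It was at 0.282 and 0.318 FPKM, from 19 and 29 fragments, and its interval was the widest on the high side, from -0.71 to 1.09. Neither gene was detectably different at this depth. Per length, Fos was 4.86 and 4.37 times as abundant as Fosb.

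Set beside the family members that are not on the list, the transcripts of the Jun and Fos families were far from equal. Jund, a Jun family gene that is expressed without stimulation, was at 30.0 and 26.7 FPKM, level with Jun. Fosl2, a Fos family gene, was at 4.84 and 3.04 FPKM and above Fos in each library, and Fosl1 was listed at 0 and at 0.0261 FPKM. The Jun family summed to 60.9 and 56.2 FPKM and the Fos family to 6.49 and 4.78 FPKM, a ratio of 9.39 and 11.8. Of the total of both families, Fos held 2.03% and 2.28% and Fosb 0.418% and 0.522%. These are transcript levels per length, not protein.

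**Figure D3:**
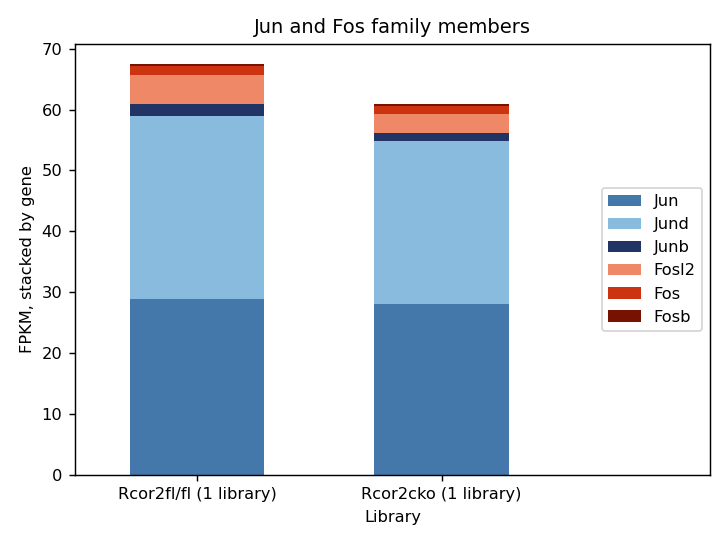
Stacked FPKM of the Jun family (blues) and Fos family (reds) in each library, 1 library per bar, from 0; Fosl1, at 0 and 0.0261 FPKM, is not drawn. Jun and Jund make up most of both bars, and Fosl2 exceeds Fos at 4.84 against 1.37 FPKM and 3.04 against 1.39 FPKM.

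Among the other transcription factors of the list, Nr4a1, an orphan nuclear receptor, lies on chromosome 15 from 101097277 to 101105223 on the plus strand. It was at 2.44 and 1.69 FPKM, from 105 and 98 fragments. It was thus 1.44-fold lower without pseudocount, with a log2 interval from -0.94 to -0.12. Egr1, a zinc finger factor induced by growth factors and synaptic activity, lies on chromosome 18 from 35020861 to 35024638 on the plus strand. It was at 0.885 and 0.998 FPKM, from 48 and 73 fragments, with an interval from -0.37 to 0.73. Atf3, a stress-induced factor of the ATF/CREB family, lies on chromosome 1 from 192994175 to 193007219 on the minus strand. It was at 0.834 and 0.774 FPKM, from 28 and 35 fragments, with an interval from -0.87 to 0.66. Egr1 and Atf3 stayed below 1 FPKM in both libraries and, like Fosb, did not enter the counts of tested genes.

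Ier2, a small nuclear protein that is induced by serum and growth factors, lies on chromosome 8 from 87185230 to 87186751 on the minus strand. It was at 8.99 and 6.86 FPKM, from 225 and 231 fragments. Ier2 was 1.31-fold lower in the Rcor2cko library, with a log2 interval from -0.66 to -0.12. Dusp1, a phosphatase that switches off MAP kinases and so limits the response, lies on chromosome 17 from 26642535 to 26645464 on the minus strand. It was at 13.0 and 12.1 FPKM, from 427 and 537 fragments, a log2 ratio of -0.10 with an interval from -0.29 to 0.09. Arc, whose product acts at synapses of active neurons, lies on chromosome 15 from 74499513 to 74503000 on the minus strand. It was at 1.20 and 1.14 FPKM, from 65 and 83 fragments, a log2 ratio of -0.07 with an interval from -0.57 to 0.41.

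The 3 lower members were read against genes of like level. Junb and Nr4a1, at -0.55 and -0.51 on (FPKM + 0.1), lay within the 5th and 95th percentile of the 1744 genes with a mean from 1 to 3 FPKM, which were -0.57 and 0.85. Ier2, at -0.39, was near the 5th percentile of the 3746 genes from 3 to 10 FPKM, for which the percentiles were -0.39 and 0.46. Jun and Dusp1 lay well within those of the 4619 genes from 10 to 40 FPKM, -0.28 and 0.24. Ranked from the lowest ratio among the 11777 genes tested, Junb was at place 258, Nr4a1 at 311 and Ier2 at 574.

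**Figure D4:**
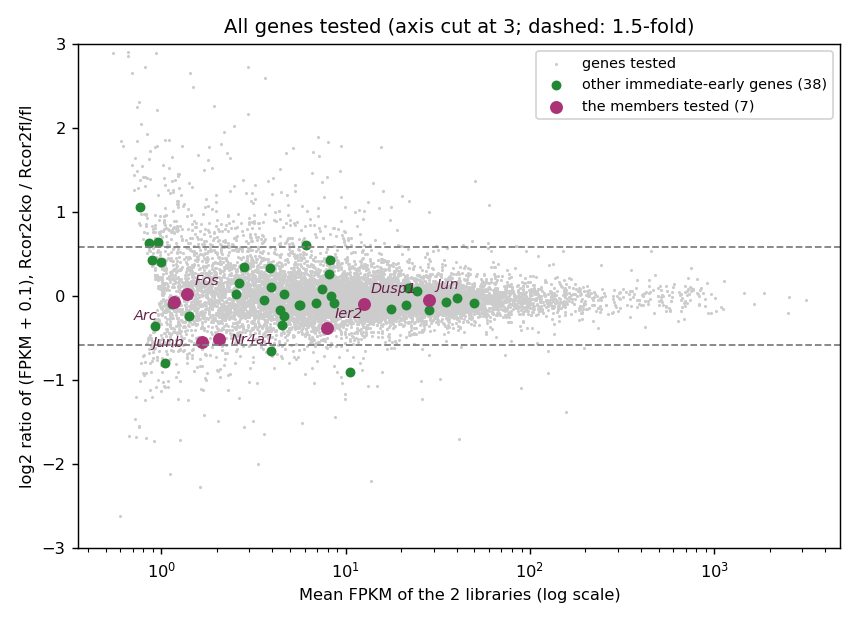
The log2 ratio of (FPKM + 0.1) against the mean FPKM of the libraries (log axis) for the genes tested (grey), 38 other immediate-early genes (green) and the 7 members tested (purple), with 1.5-fold dashed; 31 genes lie past the axis limit of 3. The 7 members lie between -0.55 and 0.02, inside the dashed lines.

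The rest of the immediate-early response was taken from lists of 48 genes, of which 38 were tested. Of these, 7 (18.4%) were past 1.5-fold, 4 higher and 3 lower, where 5.54% of all genes tested were. The mean level of 5 of these 7 was under 5 FPKM, and the 95% FPKM intervals were apart between the libraries for 3 of them (Fosl2, Nr4a3 and Klf4). Of the 38 genes, 18 were above and 20 below 0, with a median log2 ratio of -0.03. Among 8 other AP-1 family genes, 5 were tested. Fosl2 was lower at -0.65 and Maff, a small Maf factor, at -0.80 (1.35 and 0.736 FPKM), with exact intervals from -0.86 to -0.48 and from -1.61 to -0.17. Jdp2, a repressor of AP-1, was at 0.64 (0.733 and 1.20 FPKM), with an interval from -0.08 to 1.55 that includes 0. Mafk was at 5.04 and 3.96 FPKM, a log2 ratio of -0.34.

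Among 18 other immediate-early transcription factors and regulators, 14 were tested. Both relatives of Nr4a1 were past 1.5-fold. Nr4a3 was lower at -0.90 (13.8 and 7.37 FPKM, exact interval -1.12 to -0.70), and Nr4a2 was at 0.61 (4.81 and 7.39 FPKM). For Nr4a2, split over 2 transcripts, no fragment number could be obtained, and its FPKM intervals overlapped between the libraries. The Krüppel-like factors Klf4 and Klf2 were at 1.06 (0.466 and 1.08 FPKM) and 0.63 (0.654 and 1.07 FPKM). The interval of Klf4 ran from 0.54 to 1.92 and that of Klf2, which includes 0, from -0.08 to 1.55. The most abundant genes of this list differed little, with Ier5 at 51.0 and 48.0 FPKM, Btg2 at 21.1 and 22.5 FPKM and Btg1 at 22.0 and 20.4 FPKM. Npas4, a factor that in neurons follows calcium entry rather than growth factors, was at 0.121 and 0.115 FPKM, and Egr4 was listed at 0 in both libraries.

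None of the 19 tested genes among 22 other immediate-early effectors was past 1.5-fold, where 5.54% of all genes tested were. Their median was -0.02. The most abundant were the survival factor Mcl1 at 40.7 and 40.1 FPKM, the small GTPase Rhob at 35.7 and 34.1 FPKM and the kinase Plk2 at 24.0 and 25.0 FPKM. Over the 38 other immediate-early genes tested, the ratios nearest to the median of the members, across the 2 libraries, were those of Ier3 (-0.09), Ppp1r15a (-0.10) and Ier5 (-0.09). Of the 41 listed genes with at least 1 recovered fragment, 13 had an exact interval that excluded 0, 8 of them below and 5 above it, where 29.1% of all genes with fragments did.

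The kinases and factors upstream of the members were all present in both libraries. All 23 genes were tested and 0 were past 1.5-fold, where 5.54% of all genes tested were. Their median log2 ratio was -0.03, with a range from -0.43 to 0.36. The MAP kinases Mapk3 and Mapk8 were at 37.3 and 39.4 FPKM and at 28.1 and 28.1 FPKM. Among 10 late-response genes of active neurons, 3 were tested and 0 were past 1.5-fold. At a share of 5.54%, a count of 0 sets neither list apart from other genes. The 3 late-response genes tested were Nrn1 at 34.3 and 35.7 FPKM, Homer1 at 14.8 and 12.8 FPKM and Inhba at 1.43 and 1.60 FPKM. Below 1 FPKM, and so not counted, Rasgrp1 was at 0.173 and 0.880 FPKM, from 16 and 110 fragments (exact log2 interval 1.58 to 3.20). Sorcs3 was at 0.0683 and 0.311 FPKM, from 7 and 43 fragments (1.02 to 3.58). For the other untested genes of this list the FPKM intervals overlapped between the libraries.

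Heat shock genes were the list closest to the stress named in the label. Of 17 genes 14 were tested, 13 of them lower and 1 higher in the Rcor2cko library, with a median of -0.10. Of all genes tested 57.6% were lower, and of the 10 reference genes 8 were, with the same rounded median. Past 1.5-fold, 0 were higher and 1 lower, where 3.79% and 1.76% of all genes tested were. The gene past 1.5-fold was Hmox1, a haem oxygenase induced by oxidative stress, at 2.19 and 1.31 FPKM (exact log2 interval -1.33 to -0.15). The constitutive chaperones Hspa8, Hsp90ab1 and Hsp90aa1 were at 986 and 860 FPKM, 750.0 and 622 FPKM, and 246 and 222 FPKM. The inducible Hspa1a and Hspa1b were at 0.0204 and 0.0756 FPKM and at 0.183 and 0.196 FPKM, and since they are near-identical copies, reads may be split between them. Neither library was made from tissue that had not been dissected, so that the share of the members' levels owed to handling was not tested.

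**Figure D5:**
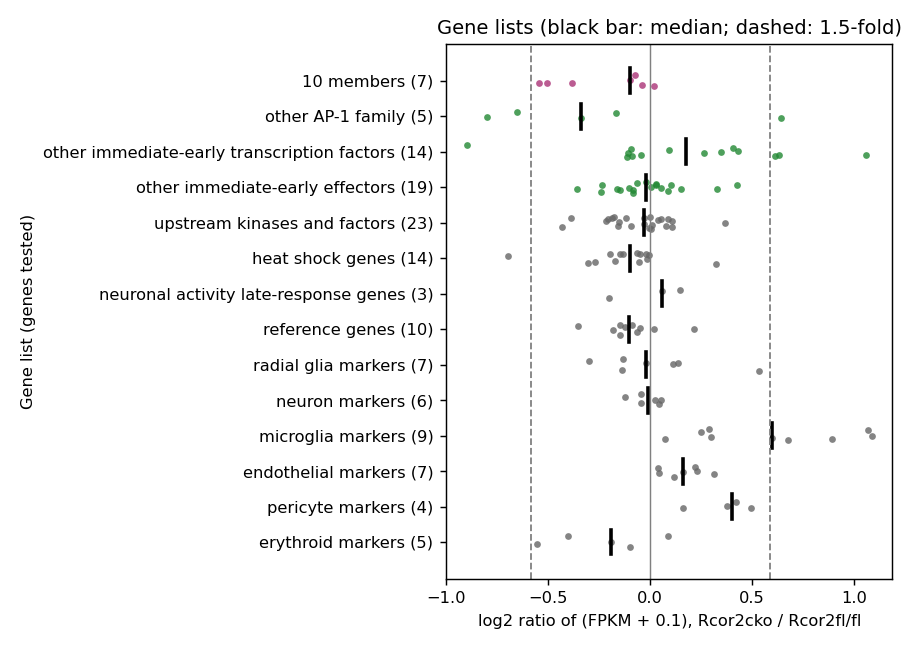
The log2 ratio of (FPKM + 0.1) for each tested gene of the lists named on the axis, with the list median as a black bar and 1.5-fold dashed. The members' median of -0.10 is that of the reference and heat shock genes, and that of the microglia markers is 0.60. Meningeal markers (none tested) and choroid plexus markers (2 tested) are not drawn.

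Some markers of other cell types differed between the libraries, and their part in the members' values was not tested. All 9 microglia markers were higher in the Rcor2cko library, with a summed level of 21.4 and 33.0 FPKM and none at 0. Past 1.5-fold higher were 5 of them, where 3.79% of all genes tested were. All 7 endothelial markers were higher with 0 past 1.5-fold, at 31.0 and 33.4 FPKM in sum, and 4 of 5 pericyte markers were tested and higher, at 15.7 and 20.4 FPKM over the list. The 6 meningeal markers summed to 1.94 and 2.23 FPKM, and none reached 1 FPKM. Within that sum genes differed in both directions. Col1a1 (0.0707 and 0.236 FPKM) and Col1a2 (0.257 and 0.580 FPKM) were higher in the Rcor2cko library, and Dcn (0.533 and 0.0985 FPKM) was lower. The 6 choroid plexus markers summed to 0.687 and 61.5 FPKM, of which Ttr, listed at 0 for Rcor2fl/fl, held 57.8 FPKM for Rcor2cko. Of 7 erythroid markers, 5 were tested, 4 of them lower, at 191 and 158 FPKM in sum.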

How the data were processed

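The members and gene lists were chosen with earlier results of these data known. RNA was isolated with RNeasy columns and made into libraries with a stranded mRNA kit. Reads were mapped to mm9 with TopHat, in version 1.3.3 with Cufflinks 1.2.0 in the submitters' processing notes; the study's methods name a later TopHat and Cuffdiff. The authors deposited FPKM values with 95% bounds, 1 row per RefSeq transcript for Rcor2fl/fl (27641 rows) and 1 per gene for Rcor2cko (21896 rows). Length and total are thus already divided out, and multi-mapped reads cannot be traced.

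Transcript rows were summed per gene. The ratio of (FPKM + 0.1), which understates differences of low genes, was taken where either library reached 1 FPKM, and genes were counted past 1.5-fold. No test of the genotypes is possible. Where a gene had a single transcript of 1000 nt or more, fragments were recovered as whole steps of FPKM times length less a fitted offset of 194 and 201 nt. Of values up to 100 fragments, 99.3% and 99.4% came within 0.1 of a whole number. Ratios of fragments have exact (Clopper-Pearson) 95% intervals, which cover counting error only. The steps were tested on simulated data.

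Named genes were the 10 members and, in the lists of other immediate-early, upstream, heat shock and late-response genes, those tested and past 1.5-fold, the 3 most abundant tested genes per list, and the 3 other immediate-early genes nearest to the members' median. The values of 1 gene that this rule names are not reported here. Jund, Fosl1, Npas4, Egr4, Hspa1a, Hspa1b, Gapdh, Tbp, Ttr, Rcor2 and Xist, as well as the genes of the closing part, were named after their values were seen. The same holds for Rasgrp1, Sorcs3, Fabp7, Col1a1, Col1a2 and Dcn. Positions are from GENCODE vM1 on NCBIM37 (mm9), counted from 1. Promoter sequences are from RefSeq (GRCm38.p6), cut to the 250 bases before the start. TGACG was added to the motifs after the sequences were seen. The alternatives were other pseudocounts, scalings, filters, folds, row choices and interval rules. Python 3.11.15, numpy 2.4.6, pandas 2.3.3, scipy 1.17.1 and matplotlib 3.10.9 were used.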

Additional observations from a re-analysis of the deposited data

How the results depend on the processing

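The members' values moved little. Over 73 recomputed log2 ratios of the members, all 73 stayed within the exact interval of the gene, and no member was past 1.5-fold under any of the 10 alternatives listed first. A filter or row choice could not move these ratios, as each member has 1 row. The interval was also built around the same ratio, so that staying within it was largely fixed in advance. Junb came nearest, at -0.58 with a pseudocount of 0.01. With the rule that the exact interval excludes 0, chosen after seeing the data, 3 members were lower. Of the other immediate-early genes, 4 were higher and 3 lower; the counts were 0 and 1 with a pseudocount of 1, 1 and 1 with at least 5 FPKM, 1 and 0 above 2-fold, 1 and 2 with non-overlapping FPKM intervals, and 5 and 8 by the exact interval. Over all genes, 446 were higher and 207 lower; the counts were 243 and 100 with a pseudocount of 1, 884 and 406 with total scaling, 1287 and 672 with no filter, 139 and 69 with at least 5 FPKM, 162 and 62 above 2-fold, 220 and 81 with non-overlapping FPKM intervals, and 1448 and 2075 by the exact interval. The highest row per gene gave 1214 higher, since it lowers the Rcor2fl/fl library only. Total scaling multiplies every FPKM, so that more genes pass the filter. The cause of the other shifts was not tested. No paired analysis was possible because each genotype has 1 library, and leaving out a library leaves no comparison. Depth limits Fosb and Atf3 most, whose exact intervals are the widest of the members.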

Other observations

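Among the other immediate-early genes below 1 FPKM, which were not counted, a pair stood apart and was picked out after its values were seen. Egr3, a relative of Egr1, was at 0.0434 FPKM (1 fragment) for Rcor2fl/fl and 0.388 FPKM (12 fragments) for Rcor2cko, with an exact log2 interval from 0.40 to 8.58. Batf3, an AP-1 family factor of immune cells, had 0.614 FPKM for Rcor2cko and was listed at 0 for Rcor2fl/fl, and its fragments were not recovered. Egr2, at 0.0575 and 0.0710 FPKM from 3 and 5 fragments, was not detectably different at this depth.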
